A study of Mus musculus with 50 samples.

Results

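The endoplasmic reticulum (ER) chaperones and the unfolded protein response were described through 10 genes, Hspa5, Hsp90b1, Pdia4, Pdia6, Calr, Canx, Xbp1, Herpud1, Dnajb9 and Sdf2l1. They were chosen by name, and each of the 10 symbols matched 1 row of a count table of 52636 genes. The table holds RNA-seq of mouse thyroid, with 50 libraries that fall into 10 groups of 5. All mice were male C57BL/6, 10 to 12 weeks old by the series text and 10 to 14 weeks by the sample text, and each received antibodies by 1 intraperitoneal injection. RW is an isotype control antibody against ragweed at 40 mg/kg. aJ1aJ2 blocks the Notch ligands Jag1 and Jag2 at 20 mg/kg each, aN1aN2 blocks the receptors Notch1 and Notch2 at 5 and 10 mg/kg, and aN1aN2aN3 also blocks Notch3, at 5, 10 and 20 mg/kg. Thyroids were taken at 15 hours (RW, aJ1aJ2, aN1aN2), at 5 days (RW, aJ1aJ2, aN1aN2) and at 7 days. The 7-day libraries carry 2 series of sample IDs and were kept apart as a first set (RW, aJ1aJ2) and a second set (aJ1aJ2, aN1aN2aN3), for which no RW group was analysed here. The antibodies were given to the whole animal, so they could act on any cell with the target. The series text also speaks of daily thyroid hormone injections, and no label says which mice received them.

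Secreted and membrane proteins are folded in the ER, and the unfolded protein response raises the output of folding factors when unfolded proteins accumulate there. Its sensors are Ern1 (IRE1), which splices the Xbp1 mRNA, Atf6, which is cleaved to a transcription factor, and Eif2ak3 (PERK), which slows translation and leads to Atf4 and Ddit3 (CHOP). Thyroid follicular cells make thyroglobulin (Tg), the large, glycosylated and disulfide-bonded precursor of thyroid hormone, and Hspa5, Hsp90b1, Canx, Calr and protein disulfide isomerases take part in its folding. The counts are per gene, so spliced and unspliced Xbp1 mRNA were not told apart.

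Promoters of many of these genes hold an ER stress response element (ERSE), the sequence at which Atf6 and Xbp1 act together with NF-Y. The element was searched on both strands of 300-base RefSeq promoter windows (GRCm38.p6, 250 bases before to 50 after the gene start) as CCAAT and CCACG with 9 bases of any kind between them. It occurred in 5 of the 10 genes, against 0.119% of 32851 windows. The elements searched here are named for this response, and many of these genes were already known to hold one. Counts of matches are therefore no test of enrichment. The shorter form ERSE-II, searched as ATTGG and CCACG with 1 base of any kind between them, occurred in Herpud1 and in 0.0365% of windows, and the UPRE core TGACGTGG occurred in 0 of the 10 genes and in 0.676% of windows. The 7 matches are shown because they are the elements named for this response, and because Herpud1 alone of the 10 holds the shorter form. Each is written 5′ to 3′ on the gene's strand with 20 flanking bases on each side, and capitals mark the 2 ends of the element.
Hspa5, chr2:34772005-34772063, plus strand: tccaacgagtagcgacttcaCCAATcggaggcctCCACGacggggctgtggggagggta
Calr, chr8:84847055-84847113, minus strand: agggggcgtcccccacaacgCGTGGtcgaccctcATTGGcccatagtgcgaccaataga
Hsp90b1 upstream match, chr10:86705618-86705676, minus strand: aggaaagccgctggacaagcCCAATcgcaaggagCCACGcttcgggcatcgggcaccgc
Hsp90b1 downstream match, chr10:86705513-86705571, minus strand: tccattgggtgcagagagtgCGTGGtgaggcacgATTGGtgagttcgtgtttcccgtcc
Canx, chr11:50325780-50325838, minus strand: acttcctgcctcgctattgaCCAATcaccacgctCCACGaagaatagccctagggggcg
Pdia6, chr12:17266471-17266529, plus strand: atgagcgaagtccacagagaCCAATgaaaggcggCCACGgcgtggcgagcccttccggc
Herpud1, chr8:94386357-94386407, plus strand: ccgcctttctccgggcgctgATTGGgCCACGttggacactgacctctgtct
The elements lay between 212 and 42 bases before the gene start. In Calr and in the downstream Hsp90b1 match the element was in reverse orientation. A match is a description of letters in a window, and no binding was measured.

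Libraries held 15271242 to 52835846 counts, and the lowest count of any of the 10 genes in any library was 142. Some libraries stood apart in tissue content. A list of 9 skeletal muscle genes took over 5% of counts in 7 libraries, which are called muscle-rich here. At 15 hours they were RW replicate 5 and aJ1aJ2 replicate 3. At 5 days they were RW replicate 3, aJ1aJ2 replicate 3 and aN1aN2 replicate 1. At 7 days they were aJ1aJ2 replicate 2 of the first set and aJ1aJ2 replicate 4 of the second. Other libraries lay just below the cut, such as aN1aN2 replicate 3 at 15 hours (4.88%) and aN1aN2 replicate 4 at 5 days (4.79%). Fits without muscle-rich libraries therefore still held muscle RNA. Tg took 0.450% of counts in RW replicate 3 and 2.39% in aJ1aJ2 replicate 3 at 5 days, against 8.80% to 42.4% in the other 5-day libraries. In the second 7-day set Tg took 1.15% to 2.82% of counts under aJ1aJ2 and 3.73% to 6.50% under aN1aN2aN3, against 8.87% to 36.5% in the first set. Plasma cells are rich in ER chaperones, and a list of 7 of their genes took at most 0.0247% of counts in any library. What plasma cells added to the chaperone counts was not tested. In whole tissue, fewer cells of a type and less RNA per cell cannot be told apart.

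Levels are given as CPM, counts scaled to TMM-adjusted library sizes. Hspa5 (BiP, ENSMUSG00000026864), the main Hsp70 chaperone of the ER, had group medians from 542 CPM under aN1aN2aN3 in the second 7-day set to 4259 CPM under RW at 5 days. Its single libraries ran from 308 CPM in aJ1aJ2 replicate 3 at 5 days to 6337 CPM in RW replicate 2 at 5 days. In order of their medians, the groups were RW at 5 days, aJ1aJ2, RW and aN1aN2 at 15 hours, aN1aN2 at 5 days, then aJ1aJ2 of the second set, aJ1aJ2 at 5 days, aJ1aJ2 and RW of the first set, and last aN1aN2aN3. Neighbours in that order overlapped in their libraries, except that all 5 aN1aN2aN3 libraries (493 to 635 CPM) lay below all RW libraries of the first set (801 to 1500 CPM).

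Sdf2l1, an ER resident that works with Hspa5 and its J-domain partners, had the widest spread, from 6.41 to 305 CPM, a ratio of 47.5. Hsp90b1 (GRP94), the ER form of Hsp90, ran from 253 to 3684 CPM. The protein disulfide isomerases Pdia4 and Pdia6 ran from 52.2 to 1566 CPM and from 98.0 to 1221 CPM. Calr (calreticulin) and Canx (calnexin) are lectin chaperones that hold glycoproteins until they are folded. Calr ran from 137 to 2589 CPM, and its group medians differed by 11.9 times. Canx ran from 248 to 944 CPM, and its group medians differed by only 2.04 times. Dnajb9 (ERdj4), a J-domain partner of Hspa5 that takes part in degradation and restrains Ern1, ran from 41.2 to 277 CPM.

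Xbp1, a transcription factor of the response, had the narrowest spread, from 134 to 442 CPM, a ratio of 3.31. Herpud1, a membrane protein of ER-associated degradation, ran from 99.9 to 539 CPM. For 8 of the 10 genes the highest group median was RW at 5 days. The exceptions were Xbp1, highest under aJ1aJ2 of the second 7-day set, and Sdf2l1, highest under aJ1aJ2 at 15 hours. The lowest group median was aN1aN2aN3 for 8 genes and RW of the first 7-day set for Xbp1 and Herpud1. Per gene length, as the authors' FPKM, the order of medians in RW at 5 days was Hspa5 (672 FPKM), Calr (380), Hsp90b1 (164), Sdf2l1 (87.6), Xbp1 (57.1), Pdia4 (53.1), Pdia6 (47.0), Dnajb9 (46.7), Herpud1 (40.9) and Canx (21.9).

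**Figure D1:**
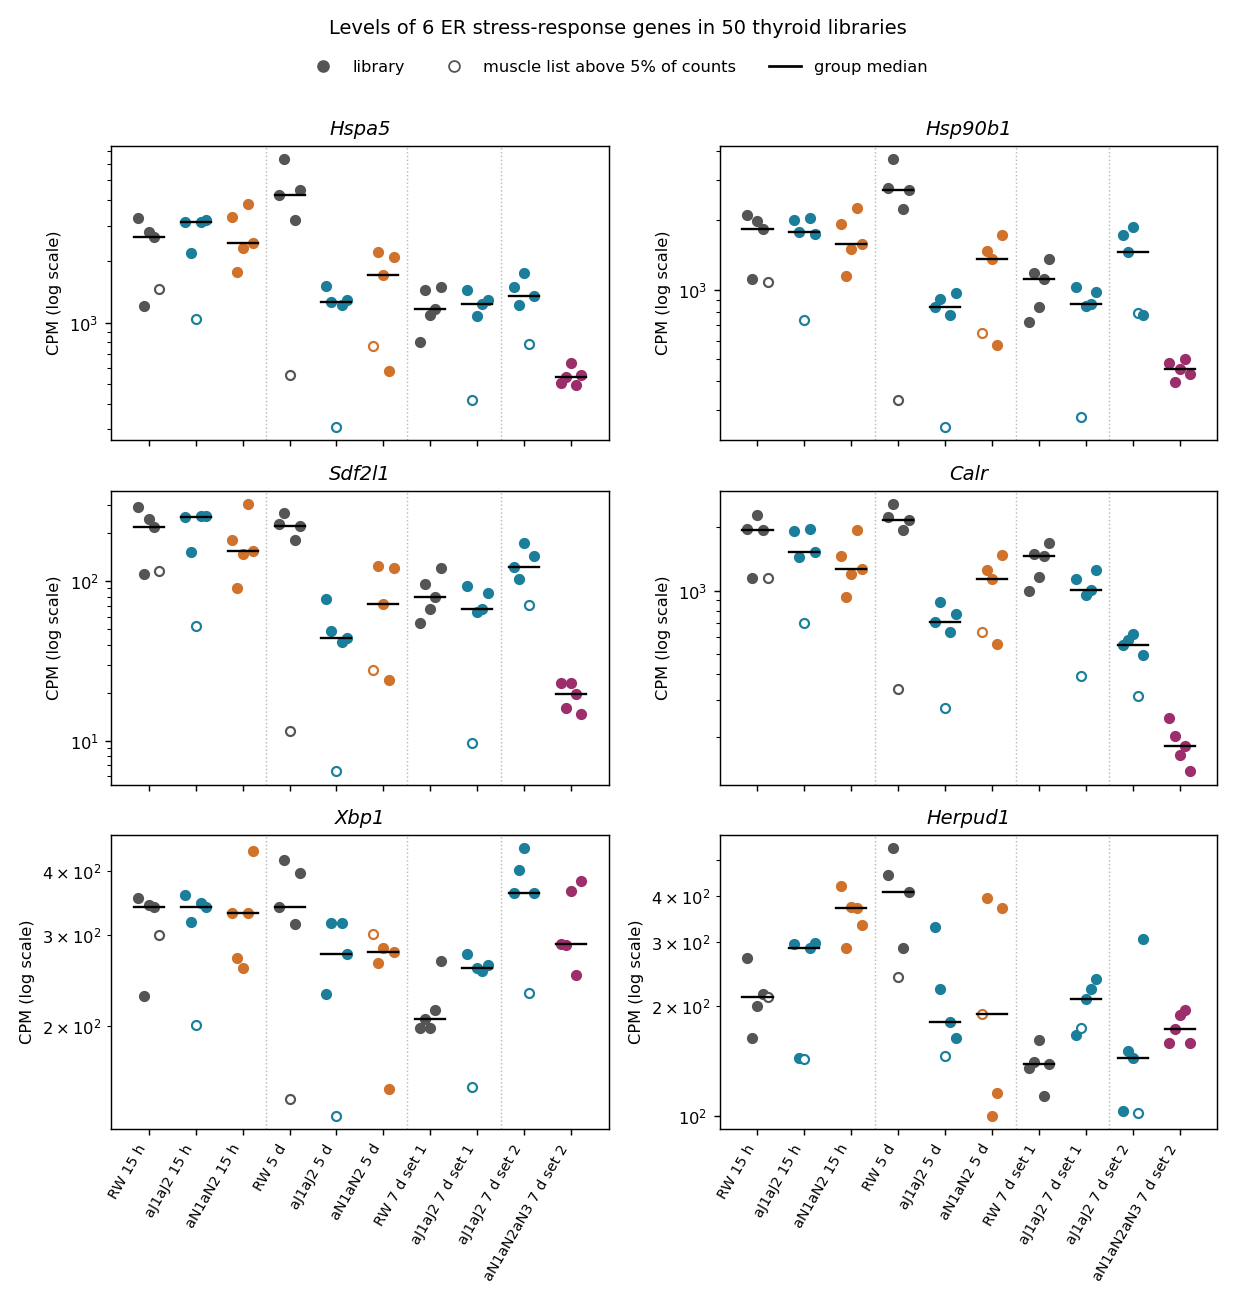
CPM (log axis) of 6 of the 10 genes in each of the 50 libraries, by group (h, hours; d, days; set 1 and set 2, the first and second 7-day set). Points are libraries, open points are muscle-rich libraries, and bars are group medians. Hspa5 libraries of aN1aN2aN3 sit between 493 and 635 CPM, and in 5 of the 7 groups with an open point that point is the group's lowest for Hspa5.

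Within groups the chaperones moved together from library to library. After group means were subtracted from log2 CPM over the 50 libraries, Pearson's r with Hspa5 was 0.984 for Pdia4, 0.973 for Sdf2l1, 0.964 for Pdia6, 0.958 for Hsp90b1, 0.950 for Calr, 0.923 for Dnajb9, 0.897 for Canx and 0.850 for Xbp1. Herpud1 stood lower, at 0.573, and ranked 3734 among 21501 genes. The 5 other genes most like Hspa5 were Manf (r = 0.987), an ER-resident secreted factor, Creld2 (0.986), Dnajb11 (0.975), Dnajc3 (0.963), both J-domain partners of Hspa5, and Gm15344 (0.959). Gm15344 overlaps exons of Hsp90b1 on the same strand, so reads of either can be assigned to the other. These values are descriptions across libraries that share depth and tissue content. The exons of Pdia6 overlap Atp6v1c2 on the opposite strand, those of Hsp90b1 also overlap 1810014B01Rik there, and it is not given whether strand was used in counting.

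At 15 hours the ligand antibodies were set against RW, and no member of the 10 genes passed the test. Hspa5 stood at 3260, 1213, 2778, 2647 and 1469 CPM in RW replicates 1 to 5 and at 3133, 2193, 1039, 3139 and 3192 CPM under aJ1aJ2. The ranges overlapped, and the log2 fold change was 0.16 ± 0.36 (SE). By edgeR's quasi-likelihood test 0 of 10 genes passed an adjusted p of 0.05, against 0.573% of all genes tested, 0 passed an unadjusted 0.05, and DESeq2 called 0. The 4 with the smallest p were Herpud1 (0.13 ± 0.23), Calr (-0.17 ± 0.30), Hspa5 and Pdia6 (-0.09 ± 0.31), and the adjusted p was 1.0 for each. The median of the 10 was 0.03, and that of all genes was -0.03.

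Under aN1aN2 at 15 hours Herpud1 had the smallest p of the 10 genes, without passing the threshold in edgeR. It stood at 426, 288, 373, 372 and 333 CPM under aN1aN2 and at 271, 164, 200, 215 and 212 CPM in RW, so all 5 treated libraries lay above all 5 controls. Such a gap upward was seen for 1 of the 10 genes and for 2.66% of all genes. The log2 fold change was 0.75 ± 0.23, with an adjusted p of 0.123 in edgeR and 0.0417 in DESeq2. In edgeR 0 of 10 genes passed the threshold, against 1.68% of all genes, 1 passed an unadjusted 0.05 (14.4% of all genes), and DESeq2 called 1 (4.65%). Dnajb9 (0.47 ± 0.33), Calr (-0.32 ± 0.30) and Canx (-0.18 ± 0.19) had adjusted p-values of 0.558 to 0.711. The aN1aN2 libraries carry the sample-ID series of the 5-day groups, not that of the other 15-hour libraries, so series and antibody cannot be told apart here.

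Among related genes at 15 hours, the cytosolic and mitochondrial chaperones gave the only edgeR calls with all libraries. These calls were under aN1aN2, where sample-ID series and antibody cannot be told apart. Under aN1aN2 4 of 16 were higher, against 0.88% of all genes. They were the Hsp70 gene Hspa8 (log2 fold change 1.02 ± 0.13, adjusted p 0.00147), the J-domain genes Dnaja1 (0.94 ± 0.13, adjusted p 0.00196) and Dnajb1 (0.74 ± 0.13, adjusted p 0.0113), and the cytosolic Hsp90 gene Hsp90aa1 (1.17 ± 0.21, adjusted p 0.0124), all by edgeR. With all libraries, the other lists, which hold 6 stress sensors, 23 tested ER folding factors, 15 genes of ER-associated degradation, 22 of translocation and glycosylation and 15 of the Atf4 and CHOP arm, gave 0 calls under either antibody in edgeR. Without the muscle-rich libraries 7 of 16 cytosolic and mitochondrial chaperones were higher under aN1aN2, against 0.842% of all genes, and so was Edem3 of ER-associated degradation (0.49 ± 0.10, adjusted p 0.0263), named after its value was seen. Over all 97 related genes with all libraries, 22 under aN1aN2 passed an unadjusted 0.05 in edgeR, against 14.4% of all genes. DESeq2 called 11 of the 97 there, against 4.65% of all genes. Under aJ1aJ2 2 passed an unadjusted 0.05, against 1220 of all 18513 genes tested. DESeq2 called 1 there, and its count over all genes is given at the end, with the dependence on processing.

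At 5 days every one of the 10 genes had a negative log2 fold change under aJ1aJ2, and none passed the test with all libraries in it. Hspa5 stood at 4259, 6337, 556, 3181 and 4478 CPM in RW and at 1513, 1270, 308, 1221 and 1290 CPM under aJ1aJ2. Hsp90b1 stood at 2764, 3684, 330, 2248 and 2706 CPM in RW and at 842, 916, 253, 773 and 968 CPM under aJ1aJ2. For both genes, 4 RW libraries lay above every aJ1aJ2 library, and RW replicate 3 lay below 4 of the 5. That library is the one with 0.450% Tg and 11.7% muscle genes.

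Calr, Pdia6 and Sdf2l1 showed the same arrangement. Calr stood at 2251, 2589, 341, 1936 and 2170 CPM in RW and at 710, 881, 275, 631 and 775 CPM under aJ1aJ2. Pdia6 stood at 975, 1221, 147, 827 and 1008 CPM in RW and at 324, 352, 98.0, 293 and 338 CPM under aJ1aJ2. Sdf2l1 stood at 229, 266, 11.5, 182 and 221 CPM in RW and at 77.3, 49.0, 6.41, 41.5 and 43.9 CPM under aJ1aJ2. In each of the 3 genes RW replicate 3 was the only RW library within the range of aJ1aJ2, so the groups overlapped in all 10 genes, while 2.06% of all genes lay lower with no overlap.

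By edgeR with all libraries, the log2 fold changes were -1.58 ± 0.50 for Pdia6, -1.51 ± 0.49 for Calr, -1.65 ± 0.56 for Hsp90b1 and -1.76 ± 0.61 for Hspa5, with adjusted p-values of 0.231 to 0.268. The median of the 10 genes was -1.55, and that of all genes was -0.06. In edgeR 0 of 10 passed the threshold, against 0.179% of all genes, while 9 passed an unadjusted 0.05 (11.8% of all genes), DESeq2 called 2 (2.95%) and limma on FPKM called 0. Without RW replicate 3 alone, 3 genes passed as lower, against 0.642% of all genes, namely Pdia6 (-1.84, adjusted p 0.043), Calr (-1.77, adjusted p 0.0374) and Hsp90b1 (-1.92, adjusted p 0.0479).

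Without the 3 muscle-rich libraries of that time, 7 of the 10 genes were lower under aJ1aJ2 by edgeR, against 1.76% of all genes called lower. The log2 fold changes were -1.78 ± 0.36 for Hspa5 (adjusted p 0.0279), -1.70 ± 0.30 for Hsp90b1 (adjusted p 0.017) and -2.08 ± 0.42 for Sdf2l1 (adjusted p 0.0272). The disulfide isomerases Pdia4 (-1.88 ± 0.38, adjusted p 0.0264) and Pdia6 (-1.62 ± 0.27, adjusted p 0.0147) fell as well, and so did the lectin chaperones Calr (-1.57 ± 0.26, adjusted p 0.0144) and Canx (-0.79 ± 0.18, adjusted p 0.0436). Dnajb9, Herpud1 and Xbp1 did not pass. With all libraries kept and log2 Tg share as a covariate, 8 of 10 were lower, against 5.08% of all genes, and Dnajb9 was the eighth (-1.01 ± 0.23, adjusted p 0.0176). Both settings were chosen after the data were seen. With the log2 share of the muscle list as a covariate the values were smaller. In that fit 3 of 10 genes were called, against 3.48% of all genes called lower. They were Hsp90b1 (-1.32 ± 0.33, adjusted p 0.0372), Pdia6 (-1.30 ± 0.30, adjusted p 0.0287) and Calr (-1.24 ± 0.29, adjusted p 0.0281), by edgeR. Hspa5 was at -1.39 ± 0.39 (adjusted p 0.0527). Plasma cell genes took 0.00142% to 0.0247% of counts in RW and 0.00289% to 0.0152% under aJ1aJ2 at 5 days, with the highest share in RW replicate 3.

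Under the receptor antibodies at 5 days all 10 genes again had negative values, and none passed the test. Hspa5 stood at 766, 2217, 1713, 581 and 2110 CPM under aN1aN2, all below the 4 RW libraries other than replicate 3. Dnajb9 stood at 53.2, 163, 97.6, 41.2 and 113 CPM under aN1aN2 and at 253, 277, 64.6, 191 and 265 CPM in RW. All 10 log2 fold changes were negative, with a median of -1.04 against -0.07 for all genes. The 4 with the smallest p were Dnajb9 (-1.18 ± 0.44), Hspa5 (-1.36 ± 0.60), Pdia6 (-1.04 ± 0.50) and Hsp90b1 (-1.03 ± 0.55), with adjusted p-values of 0.348 to 0.595 in edgeR.

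In edgeR 0 of 10 passed under aN1aN2 at 5 days, against 0.0% of all genes, while 2 passed an unadjusted 0.05 (10.0% of all genes) and DESeq2 called 0. Leaving out the muscle-rich libraries gave 0 of 10 again, against 0.235% of all genes called lower, with a median of -1.17 and Hspa5 at -1.47 ± 0.36 (adjusted p 0.092). With log2 Tg share as a covariate, 8 genes were lower, all but Xbp1 and Herpud1, against 2.4% of all genes, with Hspa5 at -1.46 ± 0.25 (adjusted p 0.0113). With the muscle covariate the values shrank and 0 of 10 passed in edgeR, against 2.5% of all genes called lower. Hspa5 was then at -0.72 ± 0.40 (adjusted p 0.24) and Hsp90b1 at -0.40 ± 0.34, with a median of -0.45 over the 10 genes. The result under aN1aN2 depended on which measure of tissue content was in the fit. The comparisons of aJ1aJ2 and aN1aN2 share their RW libraries, so their likeness is not independent evidence.

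Whether the aJ1aJ2 effect differed between 15 hours and 5 days was asked with an interaction term over 30 libraries, a test added after the data were seen. All 10 values were negative, with Hspa5 at -1.95 ± 0.70, Hsp90b1 at -1.72 ± 0.63, Pdia6 at -1.53 ± 0.60 and Pdia4 at -1.97 ± 0.80. In edgeR 0 of 10 passed (adjusted p 0.235 for Hspa5), against 0.636% of all genes, 7 passed an unadjusted 0.05 (11.2% of all genes), and DESeq2 called 0. With the muscle covariate 0 of 10 passed, against 1.78% of all genes more negative, with Hspa5 at -1.65 ± 0.49 (adjusted p 0.0646). Without the muscle-rich libraries 5 passed as more negative at 5 days, against 0.815% of all genes. They were Hspa5 (-2.07 ± 0.48, adjusted p 0.0372), Hsp90b1 (-1.86 ± 0.38, adjusted p 0.0213), Pdia4 (-2.09 ± 0.51, adjusted p 0.0453), Pdia6 (-1.67 ± 0.37, adjusted p 0.0301) and Calr (-1.54 ± 0.36, adjusted p 0.0382).

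**Figure D2:**
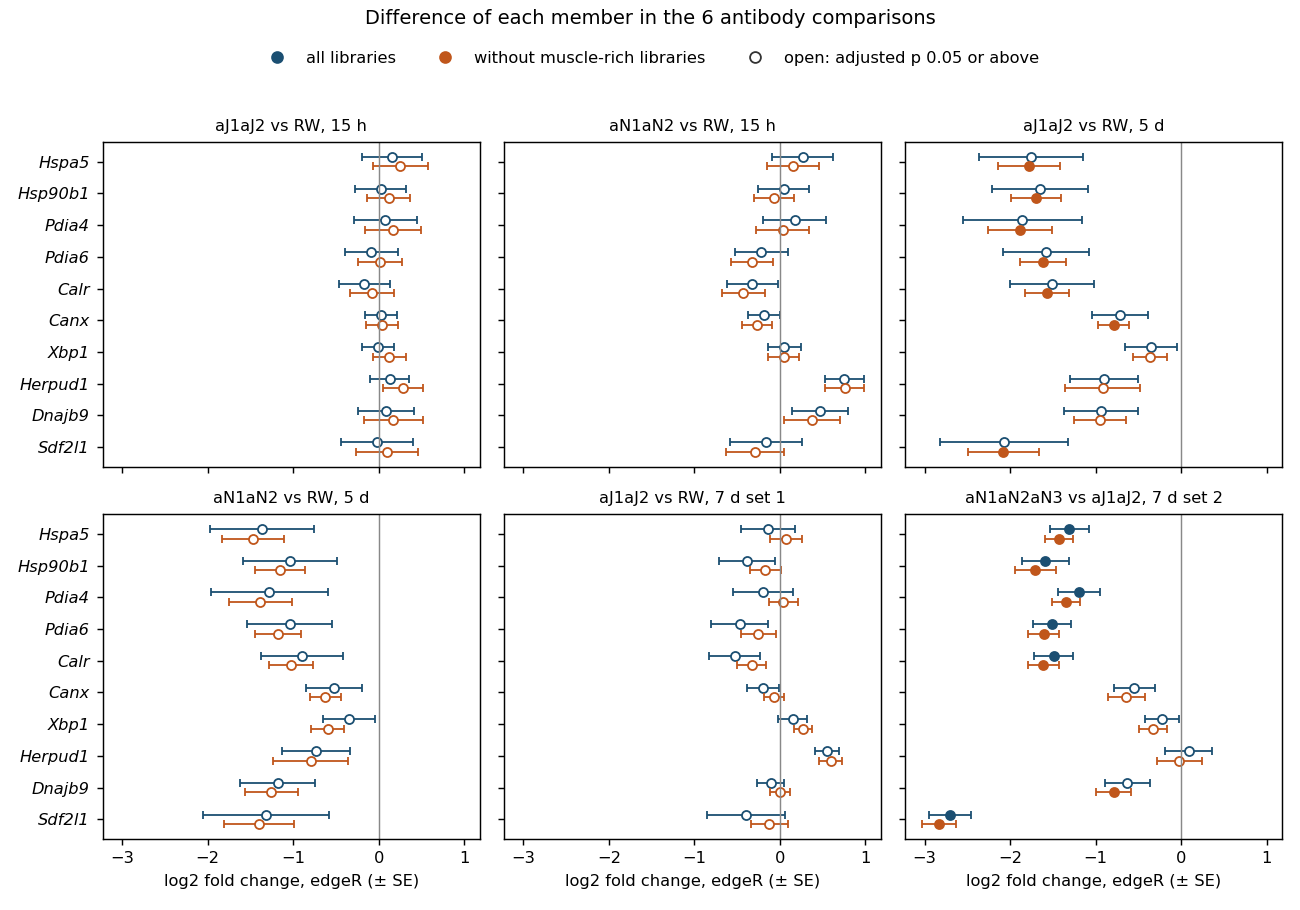
log2 fold change (edgeR, error bars ± SE) of each of the 10 genes in 6 antibody comparisons, with all libraries (blue) and without muscle-rich libraries (orange). Filled points have an adjusted p below 0.05. At 5 days under aJ1aJ2, 7 orange points are filled and 0 blue points are, and in the second 7-day set (lower right) 6 blue points are filled.

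The genes around the response at 5 days followed the chaperones in sign under aJ1aJ2. All 23 other ER folding factors, all 15 genes of ER-associated degradation and all 22 genes of translocation and glycosylation had negative log2 fold changes. Their medians were -0.71, -0.48 and -0.65, against -0.06 for all genes. The genes share their libraries, so their signs are not independent. The only call with all libraries was Erp44, a thioredoxin-family protein of the early secretory pathway, at -0.91 ± 0.16 (adjusted p 0.0431, edgeR). The cytosolic and mitochondrial chaperones were also negative in 16 of 16, with a median of -0.54. The stress sensors (median -0.07) and the Atf4 and CHOP arm (median -0.32) held both signs. Over the 97 related genes DESeq2 called 16, against 2.95% of all genes. Under aN1aN2 at 5 days 0 of 97 passed in edgeR, against 0.0% of all genes. There 28 passed an unadjusted 0.05, against 10.0% of all genes. DESeq2 called 7, and its count over all genes is given at the end, with the dependence on processing. In the interaction of time and aJ1aJ2, 3 of 97 passed in edgeR, against 0.636% of all genes. They were Ubxn4 of ER-associated degradation (adjusted p 0.0303), Dnaja1 (adjusted p 0.0201) and Cct3 (adjusted p 0.0465), all more negative at 5 days.

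Without the muscle-rich libraries at 5 days, 10 of 23 folding factors and 12 of 22 translocation and glycosylation genes were lower under aJ1aJ2, against the same 1.76% of all genes. The 5 of 15 degradation genes called lower were Derl3 (-2.27 ± 0.38, adjusted p 0.0149), Sel1l, Derl1, Selenos and Ubxn4, named here after their values were seen. Of the other lists, 1 gene each was lower, likewise named after the fact, namely the sensor Atf6b, the transcription factor Atf3 and the cytosolic chaperonin subunit Cct3.

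At 7 days in the first set, the chaperones overlapped between aJ1aJ2 and RW, and Herpud1 did not. Hspa5 stood at 801, 1445, 1088, 1167 and 1500 CPM in RW and at 1447, 416, 1085, 1231 and 1291 CPM under aJ1aJ2. Herpud1 stood at 135, 141, 162, 113 and 139 CPM in RW and at 166, 174, 209, 223 and 237 CPM under aJ1aJ2. Every aJ1aJ2 library lay above every RW library for Herpud1, as for 1.68% of all genes, and the log2 fold change was 0.55 ± 0.14, with an adjusted p of 0.186 in edgeR and 0.00898 in DESeq2.

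Among the others of the first 7-day set, Calr (-0.53 ± 0.30), Pdia6 (-0.47 ± 0.33) and Hsp90b1 (-0.39 ± 0.33) had the smallest p, with adjusted p-values of 0.501 to 0.62. In edgeR 0 of 10 passed, against 0.0% of all genes, while 1 passed an unadjusted 0.05 (11.6% of all genes) and DESeq2 called 1 (2.62%). The lowest aJ1aJ2 library for Hspa5, replicate 2, was muscle-rich. Without it the values were 0.07 ± 0.19 for Hspa5 and -0.33 ± 0.17 for Calr, and Herpud1 was at 0.59 ± 0.13 (adjusted p 0.121, edgeR), with 0.0696% of all genes called. Of 96 related genes 0 passed in edgeR, 9 passed an unadjusted 0.05 (11.6% of all genes), and DESeq2 called 1 (2.62%).

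In the second 7-day set the chaperones were lower under aN1aN2aN3 than under aJ1aJ2. Hspa5 stood at 507, 542, 635, 493 and 556 CPM under aN1aN2aN3 and at 1502, 1223, 1754, 787 and 1351 CPM under aJ1aJ2. Sdf2l1 stood at 23.1, 16.1, 23.1, 19.6 and 14.7 CPM under aN1aN2aN3 and at 122, 103, 174, 70.7 and 145 CPM under aJ1aJ2. On the TMM scale the 2 groups did not overlap in either gene, and the lowest aJ1aJ2 library of both, replicate 4, was muscle-rich.

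By edgeR, 6 of 10 genes fell, against 10.4% of all genes called lower in that comparison. The log2 fold changes were -2.70 ± 0.25 for Sdf2l1 (adjusted p 0.00031), -1.51 ± 0.22 for Pdia6 (adjusted p 0.00181), -1.49 ± 0.23 for Calr (adjusted p 0.00225), -1.31 ± 0.23 for Hspa5 (adjusted p 0.0034), -1.59 ± 0.28 for Hsp90b1 (adjusted p 0.00362) and -1.19 ± 0.24 for Pdia4 (adjusted p 0.00741). On the TMM scale the groups did not overlap in these 6 genes, against 6.64% of all genes. As unscaled counts, the 10 genes together took 0.313% in the muscle-rich aJ1aJ2 replicate 4. That lay below the 0.342% to 0.366% under aN1aN2aN3. The TMM factor over the 50 libraries was 0.949 for that replicate and 1.32 to 1.46 under aN1aN2aN3, so the gap depends on the scaling. The means were 19.3 ± 3.91 CPM against 123 ± 39.4 CPM (SD, n = 5 each) for Sdf2l1 and 547 ± 55.6 CPM against 1323 ± 359 CPM for Hspa5.

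Hsp90b1 stood at 479, 397, 450, 499 and 431 CPM under aN1aN2aN3 and at 1723, 1453, 1881, 792 and 775 CPM under aJ1aJ2. Calr stood at 246, 202, 164, 182 and 137 CPM under aN1aN2aN3 and at 553, 583, 624, 314 and 494 CPM under aJ1aJ2. The aJ1aJ2 replicates 4 and 5 were the nearest to the other group in both genes.

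The remaining 4 genes did not pass. Dnajb9 was at -0.63 ± 0.26 (adjusted p 0.107), Canx at -0.55 ± 0.24 (adjusted p 0.124), Xbp1 at -0.22 ± 0.20 (adjusted p 0.456) and Herpud1 at 0.09 ± 0.27 (adjusted p 0.84), all by edgeR. For Herpud1, aJ1aJ2 replicate 5 (304 CPM) lay above all other libraries of the set (102 to 194 CPM). Without the muscle-rich library Dnajb9 passed too, at -0.79 ± 0.20 (adjusted p 0.0198), which made 7 of 10 against 11.3% of all genes.

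Tissue markers moved with the antibody in this set. The thyroid follicular list took 3.92% to 6.82% of counts under aN1aN2aN3 and 1.26% to 3.04% under aJ1aJ2, and the C cell list 3.07% to 4.80% and 0.677% to 2.60%. The adipocyte list went the other way, with 0.0258% to 0.129% and 0.269% to 0.495%. Parathyroid genes took 1.07% to 4.39% and 0.0119% to 7.71%, and plasma cell genes 0.00182% to 0.0124% and 0.00610% to 0.0164%, and both overlapped. With log2 Tg share as a covariate 0 of 10 genes passed, and 3 genes in the whole table did (0.0163%). Tg share did not overlap between the groups, so Tg content and antibody cannot be told apart, and the part of the other tissues was not tested.

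Of 23 folding factors outside the 10 genes, 8 were lower and 0 higher, against 10.4% and 9.19% of all genes, and 15 did not pass, with positive values in 8. Those lower included Manf (-2.18 ± 0.26, adjusted p 0.000759), Dnajb11 (-0.92 ± 0.15, adjusted p 0.00252), Fkbp2, a prolyl isomerase (-1.36 ± 0.25, adjusted p 0.00449), and Creld2 (-1.21 ± 0.24, adjusted p 0.00615), all by edgeR. In ER-associated degradation 2 of 15 were lower, Derl3 (-2.26 ± 0.25, adjusted p 0.000493) and Edem1 (-0.66 ± 0.16, adjusted p 0.0132), and 1 was higher, the lectin Os9 (0.86 ± 0.22, adjusted p 0.0212), shares near those of all genes. Of 22 translocation and glycosylation genes 5 were lower, the translocon genes Sec61g (-1.81 ± 0.36, adjusted p 0.00635) and Sec61b, the signal peptidase genes Spcs3 (-0.96 ± 0.21, adjusted p 0.0103) and Spcs2, and Rpn1 of the oligosaccharyltransferase, the last named after its value was seen.

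The sensors and the Atf4 arm did not follow the chaperones in sign. Ern1 was higher under aN1aN2aN3 (1.07 ± 0.19, adjusted p 0.00418), with 41.3 ± 11.5 CPM against 19.2 ± 2.11 CPM (SD, n = 5 each), and the other 5 sensors did not pass. Of 14 tested genes of the Atf4 and CHOP arm 4 were higher, against 9.19% of all genes. They were Ddit4 (2.73 ± 0.26, adjusted p 0.000404) and Sesn2 (2.29 ± 0.29, adjusted p 0.00114), stress genes that restrain mTORC1, Ppp1r15a (GADD34; 1.41 ± 0.26, adjusted p 0.00453), a phosphatase subunit that restores translation, and Trib3 (1.37 ± 0.31, adjusted p 0.0112), the last named after its value was seen. Ddit3 itself, the gene of CHOP, was lower (-0.72 ± 0.13, adjusted p 0.00411). Of 16 cytosolic and mitochondrial chaperones 5 were lower, against 10.4% of all genes. They were Hspe1 (-1.54 ± 0.28, adjusted p 0.00448), Dnaja1 (-0.69 ± 0.17, adjusted p 0.0157), Hsph1, Hspa8 and, named after its value was seen, Hspd1. The aJ1aJ2 reference itself differed between the sets. In the second set against the first, all 6 sensors were called lower, against 29.9% of all genes. Of 15 Atf4 and CHOP arm genes 3 were lower and 5 higher, against 29.9% and 34.1%. The log2 fold changes (edgeR) were -2.64 for Ern1, -2.45 for Ddit4, -1.08 for Sesn2 and 0.93 for Ddit3. Without an RW group, an antibody effect and a shifted reference cannot be told apart.

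**Figure D3:**
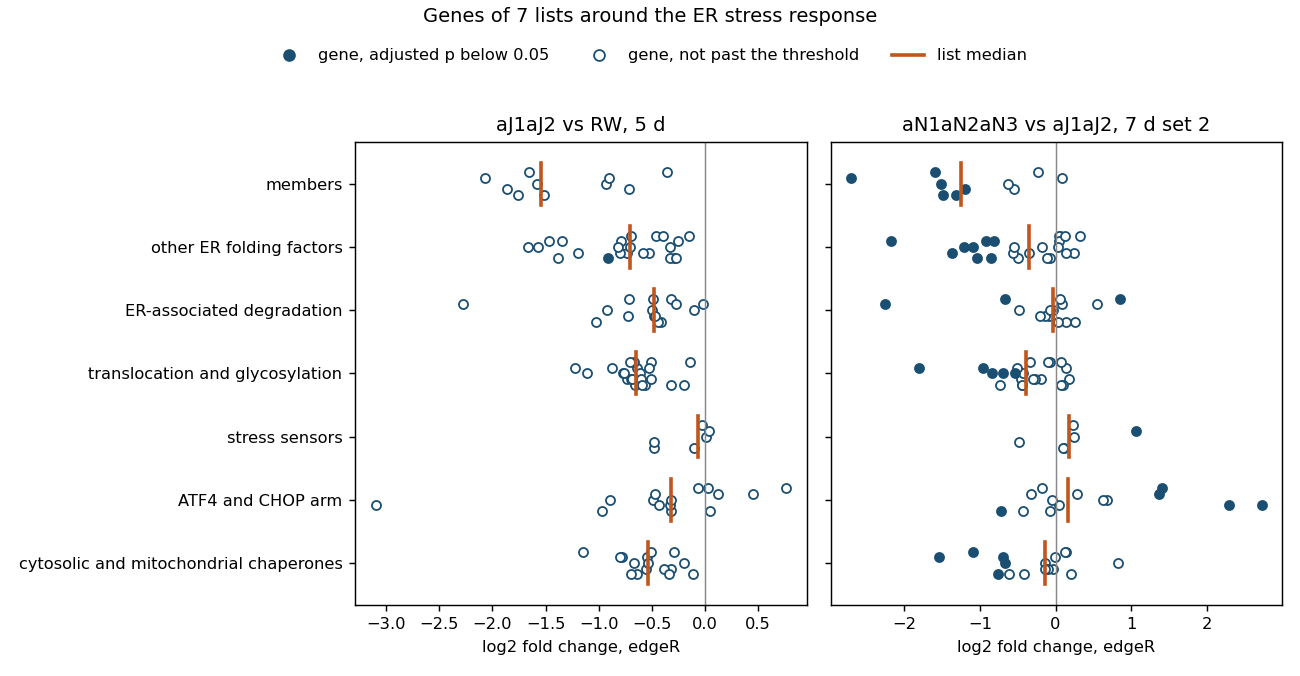
log2 fold change (edgeR) of each tested gene of 7 lists, under aJ1aJ2 against RW at 5 days (left) and under aN1aN2aN3 against aJ1aJ2 in the second 7-day set (right), with different horizontal scales. Filled points have an adjusted p below 0.05, and vertical bars are list medians. The 10 genes of the top row have medians of -1.55 and -1.25, the lowest of the 7 lists in both panels.

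The 2 aJ1aJ2 groups of 7 days carry the same antibody label, and they were compared to show how far the sets differ. In the second set 5 of 10 genes were higher, against 34.1% of all genes, and 1 was lower, against 29.9%, with 64.0% called in all. The genes higher were Sdf2l1 (0.98 ± 0.40, adjusted p 0.0369), Pdia6 (0.88 ± 0.30, adjusted p 0.0134), Hsp90b1 (0.77 ± 0.32, adjusted p 0.0398), Pdia4 (0.76 ± 0.32, adjusted p 0.0451) and Xbp1 (0.62 ± 0.20, adjusted p 0.011), and Calr was lower (-0.84 ± 0.28, adjusted p 0.0116), all by edgeR. The 6 calls of 10 are near that share, so nothing is read from them about the 10 genes. The count of calls was 3 without first-set replicate 3 or 4, or without second-set replicate 1 or 3. With the 2 groups alone in the fit, 2 were called.

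The relation of each gene to Tg asks whether the folding factors track the main secreted product of the tissue across libraries. Tg share itself ran opposite to the log2 share of the muscle list. At 15 hours r was -0.805 (permutation p = 0.00032, adjusted over 3 sets 0.00048, rho = -0.729). At 5 days r was -0.939 (permutation p = 2e-05, adjusted 6e-05, rho = -0.843). At 7 days r was -0.540 (permutation p = 0.13, adjusted 0.13, rho = -0.418). Without the 2 libraries farthest from the median Tg share the 3 values of r were -0.834, -0.911 and -0.402. A relation to Tg and one to the muscle content of the sample cannot be told apart here. At 15 hours, over 15 libraries with Tg shares of 7.37% to 36.8%, 8 of 10 genes had a positive Pearson's r with an adjusted permutation p below 0.05, against 19.8% of all genes. Canx had r = 0.816 (permutation p = 0.00032, adjusted 0.00235; Spearman's rho = 0.646), Calr r = 0.703 (adjusted p 0.0125; rho = 0.639) and Hspa5 r = 0.603 (adjusted p 0.0407; rho = 0.536). By rho 2 of 10 passed, Calr and Canx, against 12.4% of all genes. Xbp1 (r = 0.254) and Herpud1 (r = 0.0628) did not pass by either measure. Within groups, by an edgeR slope with group terms, 8 passed, against 18.8% of all genes, with Hspa5 rising by 0.04 log2 units per percent of Tg (adjusted p 0.0230).

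The 15-hour relation was as strong without the 2 libraries farthest from the median Tg share, aN1aN2 replicates 2 and 5. Hspa5 was then at r = 0.754 and Canx at 0.806. Xbp1 then passed as well (r = 0.704, adjusted permutation p 0.0366), and Herpud1 did not (r = 0.333). The relation weakened without the 2 muscle-rich libraries, where 2 of 10 genes passed, against 16.9% of all genes (Canx, r = 0.765, adjusted permutation p 0.0188, and Calr, r = 0.640, adjusted p 0.0489). Hspa5 was at r = 0.456 there. Without aN1aN2 replicate 2, 4 of 10 passed, against 16.1% of all genes.

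At 5 days Tg shares ran from 0.450% to 42.4%, and 9 of 10 genes passed with a positive r, against 30.7% of all genes. The range of r over these 9 was 0.767 (Dnajb9) to 0.845 (Canx), Hspa5 was at r = 0.773 (permutation p = 0.00064, adjusted 0.00174; rho = 0.550), and Herpud1 did not pass (r = 0.329, adjusted p 0.293). By rho 5 passed, against 21.0% of all genes, and by the slope with group terms 9, against 29.6%. The relation at 5 days rested on the libraries with little Tg. Without the 2 farthest, RW and aJ1aJ2 replicate 3, 2 of 10 passed, near the 19.8% of all genes that did (Canx, r = 0.711, and Dnajb9, r = 0.697), and Hspa5 was at r = 0.605 (adjusted permutation p 0.0641). Without the 3 muscle-rich libraries 1 of 10 passed, Xbp1 (r = 0.817, adjusted p 0.0211), near the 12.2% of all genes that did.

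In the first 7-day set 0 of 10 genes passed by r over 10 libraries, against 3.77% of all genes, and 0 passed by rho, against 0.283%. Hspa5 had r = 0.735 (permutation p = 0.0615, adjusted 0.182; rho = 0.152), and 1 library, aJ1aJ2 replicate 2 with 8.87% Tg, set that value. Without it Hspa5 was at r = -0.129 (exact permutation p = 0.733), and without the 2 farthest libraries, which include it, at 0.261 (exact permutation p = 0.536). By the slope with group terms 1 gene, Pdia4, passed (adjusted p 0.0305), against 9.74% of all genes. In the second 7-day set Tg share fell into 2 separate ranges by antibody, each with 5 libraries, so the relation could not be tested there. The family held 30 relations of r and 30 of rho, and each p was adjusted over all genes tested in its set.

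**Figure D4:**
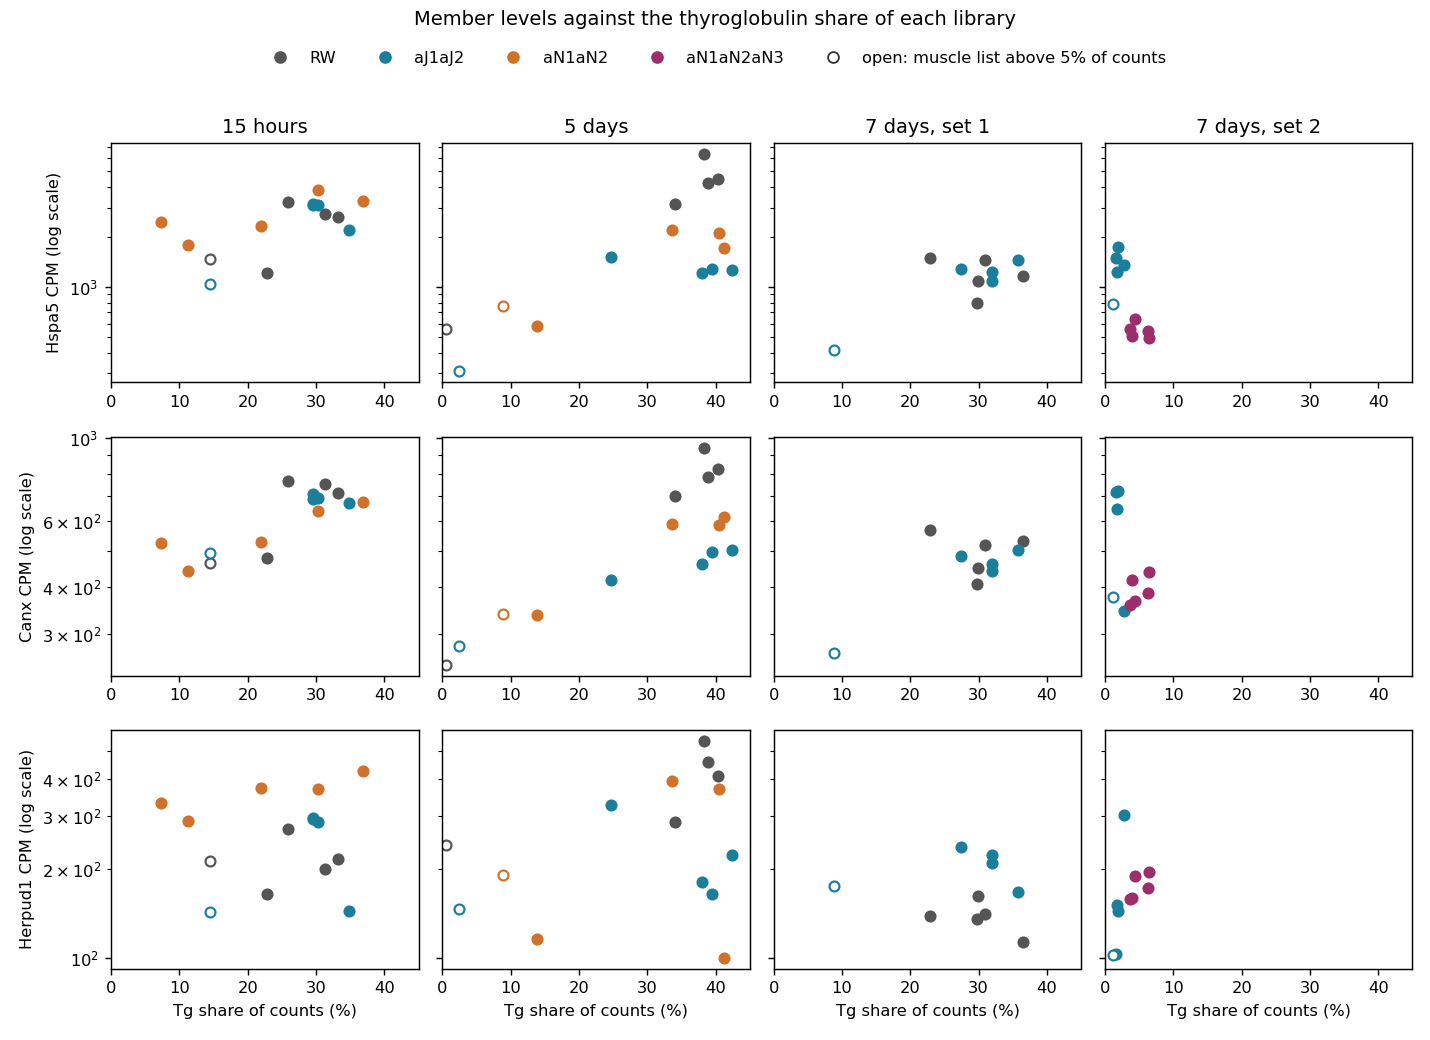
CPM (log axis) of Hspa5, Canx and Herpud1 against the Tg share of counts in percent, 1 point per library, in the 4 sets. Open points are muscle-rich libraries. At 5 days the open points lie at 0.450%, 2.39% and 8.80% Tg with Hspa5 at 556, 308 and 766 CPM, and in the second 7-day set the antibodies occupy separate ranges of Tg share.

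Several values of Herpud1 lay apart from those of the chaperones, and the difference between genes was not tested. It had the lowest r with Hspa5 within groups (0.573) and the lowest r with Tg share at 15 hours (0.0628) and 5 days (0.329). It was the only one of the 10 with all treated libraries above RW. That held under aN1aN2 at 15 hours and under aJ1aJ2 in the first 7-day set, as for 2.66% and 1.68% of all genes. Herpud1 had adjusted p-values of 0.123 and 0.186 there in edgeR. Under aN1aN2 at 15 hours, sample-ID series and antibody cannot be told apart. In the second 7-day set Herpud1 was the only one of the 10 with a positive log2 fold change (0.09 ± 0.27). At 5 days it went with the chaperones in sign, since all 10 genes had negative values under both antibodies. Its medians there were 411 CPM in RW, 180 CPM under aJ1aJ2 and 190 CPM under aN1aN2.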

How the data were processed

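RNA was sequenced from 50 mouse thyroids in 10 groups of 5. Gene-level read counts and FPKM (fragments scaled to gene length and library size) were deposited by the authors, both by Ensembl gene ID. GSNAP and limma are named in the submitters' processing notes, without a role. The read counter, genome build, annotation and strand setting were not given in the sources used here. Gene symbols were matched for 52403 IDs, and 233 had none. Exon overlaps between genes were read from the GENCODE mouse annotation. The counts were tested with edgeR 4.0.16 (robust quasi-likelihood fit, TMM factors, and the filterByExpr filter at 10 counts) in R 4.3.3, separately for each time and set. P-values were adjusted by Benjamini-Hochberg over all genes tested, with a threshold of 0.05, and each SE was derived from the fold change and its F statistic. DESeq2 1.42.0 on counts and limma 3.58.1 on log2(FPKM + 0.1) were alternatives. The deposited FPKM were otherwise used only to order levels between genes. Relations to Tg share used log2 CPM and two-sided permutation tests with 100000 resamples, or exact enumeration for up to 9 libraries. The scripts were tested on simulated data.

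Across 100 replicate pairs the smallest chi-square per degree of freedom of the counts was 15.6, so all libraries were counted as separate samples. The labels do not say how RNA preparations relate to one another beyond the sample, so p-values measure only the spread between these libraries. The 10 genes, the lists of related and marker genes and the tests were chosen with earlier results of these data known. Genes were named by a rule, namely the 10 genes, in each comparison those past the threshold and the 4 with the smallest p, at most the 4 called genes of smallest p from each related list, and the 5 genes most like Hspa5. Leaving out muscle-rich libraries, using log2 Tg share as a covariate and testing the interaction with time were chosen after the data were seen.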

Additional observations from a re-analysis of the deposited data

Results flagged for a closer look

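In 15 of 100 checks, 1 per gene and group of 5 libraries, a single library lay far from the other 4 by Dixon's criterion, which chance alone meets in about 1 in 20 groups. Most of them were low values in 3 muscle-rich aJ1aJ2 libraries, and the checks of different genes share those libraries. At 5 days aJ1aJ2 replicate 3 was lowest for Hspa5 (308 CPM), Hsp90b1 (253 CPM), Pdia4 (52.2 CPM), Pdia6 (98.0 CPM) and Dnajb9 (45.8 CPM). At 15 hours aJ1aJ2 replicate 3 was lowest for Hsp90b1 (737 CPM), Pdia6 (298 CPM), Canx (494 CPM) and Xbp1 (201 CPM). In the first 7-day set aJ1aJ2 replicate 2 was lowest for Hsp90b1 (280 CPM), Canx (267 CPM) and Xbp1 (152 CPM).

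The other 3 libraries lay below the 5% cut, with 4.79%, 0.147% and 4.11% of counts in muscle genes, in the order given here. Xbp1 was lowest in aN1aN2 replicate 4 at 5 days (151 CPM) and highest in RW replicate 5 of the first 7-day set (267 CPM). Herpud1 was highest in aJ1aJ2 replicate 5 of the second 7-day set (304 CPM).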

How the results depend on the processing

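Counts of genes past the threshold depended on tool and libraries. For aJ1aJ2 at 15 hours (106 genes) DESeq2 gave 265, limma on FPKM 0, leaving out muscle-rich libraries 47 and a fit of the 2 groups alone 48. For aN1aN2 at 15 hours (311) DESeq2 gave 842, a muscle covariate 696 and a Tg covariate 482, and the 10 genes gave 1 call with DESeq2 and 1 with the muscle covariate. For aJ1aJ2 at 5 days (33) no filter gave 9, DESeq2 522, the muscle covariate 960, the Tg covariate 1489, leaving out muscle-rich libraries 537 and the 2 groups alone 0, with 2, 3, 8 and 7 of the 10 genes under DESeq2, both covariates and the omission. For aN1aN2 at 5 days (0) the same settings gave 402, 641, 727 and 66, with 8 of the 10 genes under the Tg covariate. For aJ1aJ2 in the first 7-day set (0) no filter gave 20, DESeq2 417 with 1 of the 10 genes, the muscle covariate 6, the Tg covariate 69 and the omission 12. In the second 7-day set (3614) the Tg covariate gave 3, with 0 of the 10 genes. Second against first set (12530) gave 4872 with the Tg covariate, and 2 of the 10 genes with the 2 groups alone. The interaction (123) gave 27 without a filter, 485 with DESeq2, 495 and 950 with the covariates, 241 without muscle-rich libraries and 25 with its groups alone, and 7 and 5 of the 10 genes under the Tg covariate and the omission.

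For the relation to Tg, CPM without Tg and TMM gave 9337, 10956 and 1874 genes at 15 hours, 5 days and 7 days (3660, 5651 and 639 otherwise), and leaving out the 2 farthest libraries 2157, 3641 and 0. Leaving out muscle-rich libraries gave 2250 and 35 genes at 5 and 7 days and 2 and 1 of the 10 genes at 15 hours and 5 days, where the 2 farthest left 2. The slope at 7 days gave 1651 genes and 1 of the 10.

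Deviations of 40 same-numbered pairs of libraries correlated between -0.585 and 0.719, over 0.1 in 18. These values were not set against pairs with different numbers, and whether replicate numbers pair the samples was not tested. With a replicate block the counts were 36 and 186 at 15 hours, 1 for aJ1aJ2 at 5 days, 2100 in the second 7-day set (6 of the 10 genes) and 44 for the interaction.

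Leaving out each replicate in turn gave 35 to 127 and 120 to 331 genes at 15 hours, 0 to 197 and 0 to 9 at 5 days (0 to 3 of the 10 genes under aJ1aJ2), 0 to 20 in the first and 2042 to 4305 in the second 7-day set, and 20 to 271 for the interaction. Second against first set gave 3 to 8 of the 10 genes, and the relation to Tg 4 to 9 at 15 hours and 35 to 711 genes at 7 days.

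Signs turned for values that were not called, and for some called ones under the Tg covariate. At 15 hours under aJ1aJ2 Pdia6 was 0.012 without muscle-rich libraries, and over single omissions Pdia6 ran from -0.19 to 0.13 and Calr from -0.26 to 0.0405. With the Tg covariate Os9 was -0.0919 in the second 7-day set, and second against first set Calr was 1.49, Sel1l 0.28, Os9 0.72 and Sesn2 0.79. At 7 days r without muscle-rich libraries was -0.129 for Hspa5, -0.224 for Hsp90b1, -0.365 for Pdia6, -0.348 for Calr, -0.137 for Canx, -0.130 for Xbp1, -0.701 for Dnajb9 and -0.321 for Sdf2l1. These were also the lowest values over single omissions, whose highest were 0.874, 0.926, 0.899, 0.879, 0.929, 0.729, 0.735 and 0.929. Dnajb9 was at -0.383 without the 2 farthest. Herpud1 was at 0.372 without Tg and TMM, at 0.0011 by the slope and between -0.232 and 0.0712 over single omissions, and at 15 hours at -0.183 without muscle-rich libraries and between -0.102 and 0.236 over single omissions. The cause of these changes was not tested. limma on FPKM was not run for aN1aN2 at 15 hours and the interaction, whose libraries carry 2 FPKM scalings.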
